A study of Homo sapiens with 36 samples.

Results

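Notch pathway transcripts were compared across 3 head and neck squamous carcinoma lines and their responses to interleukin-8 and to an ACLY plasmid. The 10 genes were the receptors NOTCH1, NOTCH2 and NOTCH3, the ligands JAG1, JAG2 and DLL1, and HES1, HES2, HEY1 and NRARP from the target and feedback side of the pathway. They were chosen by symbol from a table of 58735 genes, and all 10 passed the filter on low counts. DLL1 passed through Cal27 and HN6, since it had between 4 and 15 counts in each HN4 library.

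In hg38 coordinates as the table gives them, the receptors lie at chr9:136494433-136545786 (NOTCH1), chr1:119911553-120069626 (NOTCH2) and chr19:15159038-15200981 (NOTCH3). The ligands lie at chr20:10637684-10673999 (JAG1), chr14:105140981-105168824 (JAG2) and chr6:170282206-170306565 (DLL1). The target side lies at chr3:194136145-194138732 (HES1), chr1:6412418-6424670 (HES2), chr8:79764010-79767863 (HEY1) and chr9:137300482-137302251 (NRARP). All except HES1 are on the minus strand.

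Notch receptors are single-pass membrane proteins that are activated by ligands of the Jagged and Delta-like families on neighbouring cells. Ligand binding opens the receptor to ADAM proteases and then to gamma-secretase, and the freed intracellular domain enters the nucleus, where it joins the DNA-binding protein RBPJ and Mastermind-like coactivators and switches on genes such as the HES and HEY repressors and NRARP, a feedback inhibitor. In squamous epithelium the pathway is known for promoting differentiation, and NOTCH1 is often inactivated by mutation in head and neck squamous carcinoma.

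The 36 RNA-seq libraries came from Cal27, HN6 and HN4, established lines of this human tumour, with 3 libraries in each of 12 groups. In the first experiment each line received recombinant human interleukin-8 (IL-8), a chemokine that attracts neutrophils, at 100 ng/ml for 24 h, or no treatment, to ask how lines with different levels of its receptor CXCR1 react. In the second, each line was transfected with a plasmid containing ACLY (ATP citrate lyase, a source of acetyl-CoA in the cytosol) or with vector, to look for what lies downstream of ACLY. All groups were grown with fetal bovine serum depleted of exosomes, and no group was described as a single clone.

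Libraries held between 16570601 and 20232735 counts, so that 3 counts corresponded to between 0.148 and 0.181 CPM. Levels are given in CPM, counts relative to library size after scaling with TMM factors, which correct for differences in RNA composition, and the 3 values of a group are given in the order of replicates 1, 2 and 3. The labels number the replicates but do not say that they were grown apart. A p-value here therefore reflects variation among libraries that may be purely technical. Statements on whether groups overlapped describe the libraries of the genes named. The share of all genes without overlap was not computed. Squamous epithelial markers were present in all 12 groups, with summed levels over 10 genes between 1920 and 8630 CPM, although KRT14 was at 0 in untreated HN4. Leukocyte markers summed to between 2.4 and 8.05 CPM. In bulk RNA, fewer cells of a type and less RNA per cell cannot be told apart.

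Some libraries went against their labels or stood apart. ACLY averaged 348 ± 30.4 CPM in the libraries labelled HN4 ACLY and 1508 ± 10.0 CPM in those labelled HN4 vector (SD, n = 3 each), the reverse of what the labels state, whereas it averaged 2210 CPM in HN6 with the ACLY plasmid and 268 CPM in HN6 with vector. The HN4 plasmid libraries are therefore named by label only. Genes that mark HN4, defined as at least 20 CPM in every untreated HN4 library and at most 0.3 CPM in every untreated library of the other lines, were read in treated Cal27. The median of these 9 genes relative to untreated HN4 was 0.310 ± 0.0191 in Cal27 with IL-8, 0 in untreated Cal27, 0.541 ± 0.00521 in Cal27 with the ACLY plasmid and 0 in Cal27 with vector (SD, n = 3 each). It was 0 in all 4 HN6 groups. The values in the untreated groups follow from the definition, while the vector and treated groups took no part in choosing the genes. The third Cal27 IL-8 library and the third HN4 ACLY library had the lowest mitochondrial shares of counts, 1.06% and 2.15%, against 3.16% to 6.24% in the other 34 libraries.

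HES1, HES2 and NRARP are shown first as sequence, because they stand for the target side of the pathway and their levels differed between the lines. The windows are the 250 bases before the RefSeq start of each gene in GRCh38.p14, and capitals mark TGGGAA, the core of the site that RBPJ binds, searched as TGGGAA or its complement TTCCCA on both strands. HES1 lies at chr3:194135898-194136147 on the plus strand, HES2 at chr1:6419920-6420169 on the minus strand and NRARP at chr9:137302272-137302521 on the minus strand.
HES1: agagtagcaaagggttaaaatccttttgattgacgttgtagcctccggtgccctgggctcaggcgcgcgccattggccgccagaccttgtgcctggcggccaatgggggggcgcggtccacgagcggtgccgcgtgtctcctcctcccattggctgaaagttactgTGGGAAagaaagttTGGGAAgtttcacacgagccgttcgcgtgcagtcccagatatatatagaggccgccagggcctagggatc
HES2: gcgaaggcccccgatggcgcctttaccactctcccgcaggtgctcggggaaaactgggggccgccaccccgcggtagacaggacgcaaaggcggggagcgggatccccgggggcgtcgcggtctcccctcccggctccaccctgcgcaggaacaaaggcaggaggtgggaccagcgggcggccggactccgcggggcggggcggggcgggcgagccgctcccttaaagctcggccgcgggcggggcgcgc
NRARP: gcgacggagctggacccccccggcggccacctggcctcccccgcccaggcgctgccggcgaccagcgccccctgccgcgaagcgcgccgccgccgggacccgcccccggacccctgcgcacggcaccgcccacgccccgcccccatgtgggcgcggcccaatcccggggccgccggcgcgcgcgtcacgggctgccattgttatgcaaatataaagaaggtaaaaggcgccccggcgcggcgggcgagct

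The HES1 window held 2 matches to TGGGAA, starting 84 and 70 bases before the gene start, and 1 match to the longer GTGGGAA, which overlaps the first of them. Of 35116 promoter windows of the same length, 20.8% held TGGGAA at least once and 2.9% held it at least 2 times, while 5.43% held GTGGGAA. The HES1 window also held 3 matches to CACNAG, a motif that HES repressors bind, and the NOTCH3 window held 1, against 32% of all windows with at least 1. No match to these letters was found in the windows of NOTCH1, NOTCH2, JAG1, JAG2, HES2 and NRARP, which says only that the letters are not in those windows. The RefSeq start of HES2 differs from the gene boundary in the table, so that its window lies inside the interval given above for HES2. Windows were matched for 8 of the 10 genes, all except DLL1 and HEY1.

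The untreated lines differed in nearly every Notch gene measured, and Cal27 held the highest levels of most of them. Tests are edgeR's quasi-likelihood test across all genes of an experiment with Benjamini-Hochberg adjustment, and a gene is called higher or lower when the adjusted p is under 0.05. Between untreated Cal27 and untreated HN6, all 10 genes were called, 7 higher and 3 lower in Cal27, where 68.4% of all genes tested were called, 35.3% higher and 33.1% lower. Between untreated Cal27 and untreated HN4, 9 of 10 were called, all of them higher in Cal27, against a background of 63.6%, with 32.2% higher and 31.4% lower. DLL1, among these, passed the filter on low counts through Cal27 and HN6 only. Between untreated HN6 and untreated HN4, 9 of 10 were called, 5 higher and 4 lower in HN6, against 67.2%, with 32.4% higher and 34.7% lower. The median log2 difference of the 10 genes was 0.86 for Cal27 minus HN6, 1.41 for Cal27 minus HN4 and 0.32 for HN6 minus HN4, where the medians over all genes were 0.030, 0.0022 and -0.033.

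**Figure D1:**
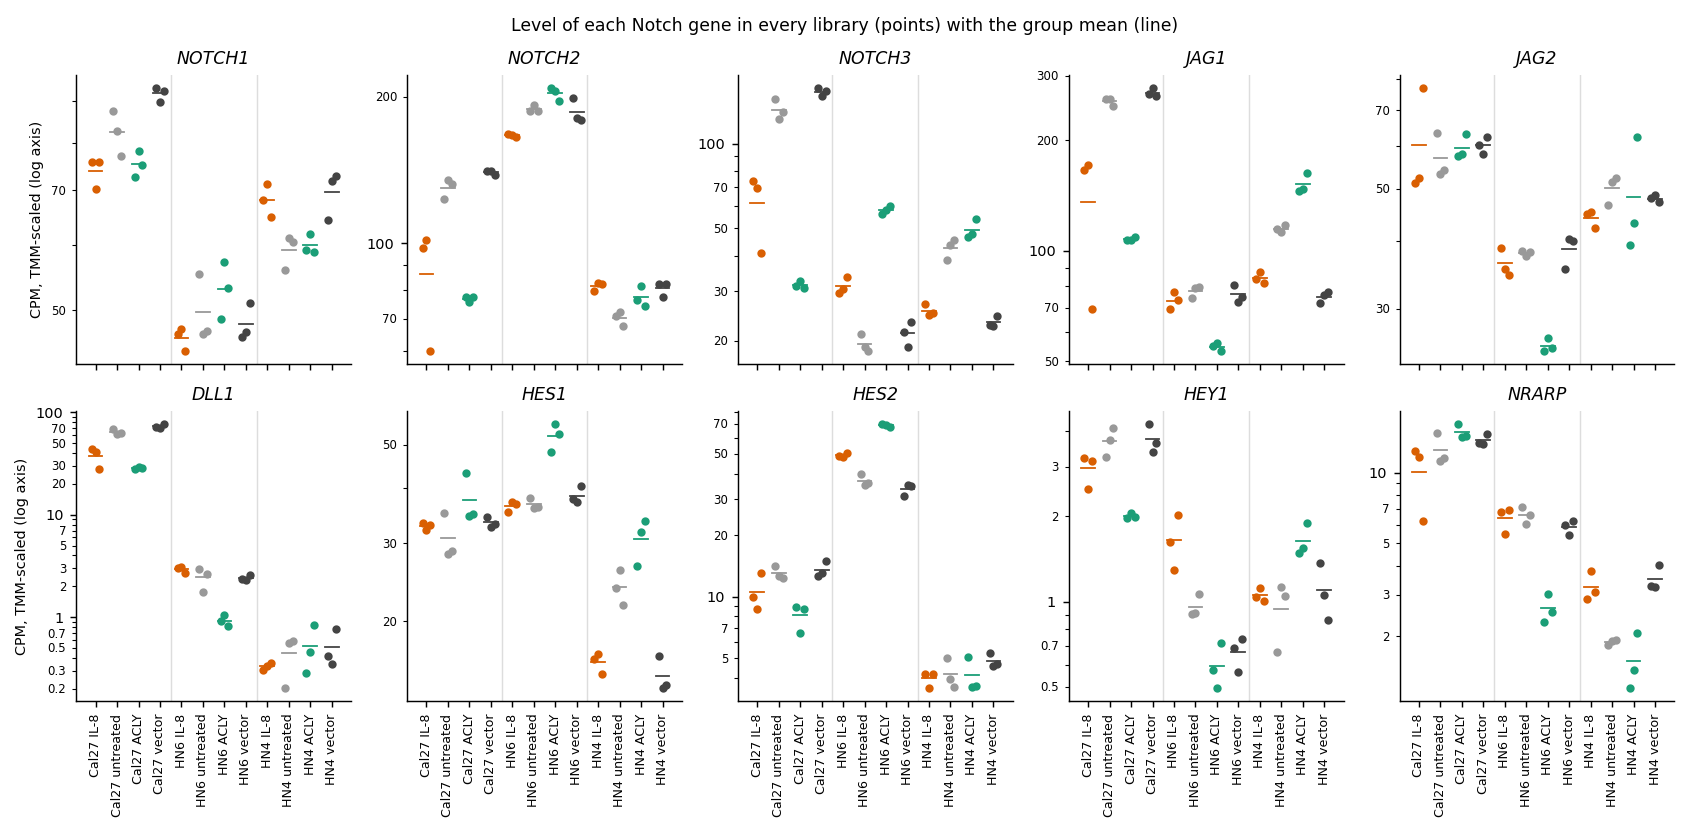
Levels of the 10 genes in CPM on log axes, with 1 panel per gene, 1 point per library and a bar at the group mean, in the 12 groups of Cal27, HN6 and HN4. DLL1 lies near 64.3 CPM in untreated Cal27 and near 0.450 CPM in untreated HN4, NOTCH2 and HES2 are highest in HN6, and the treated Cal27 libraries lie below their controls for NOTCH3, JAG1 and DLL1.

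Among the receptors, NOTCH3 separated the lines most. It had 143, 123 and 129 CPM in untreated Cal27, 21.1, 19.1 and 18.4 CPM in untreated HN6 and 38.7, 43.7 and 45.5 CPM in untreated HN4. The libraries of the 3 lines did not overlap, and each pair of lines differed, with log2 differences of 2.78 for Cal27 minus HN6 (SE 0.157, adjusted p = 3.22e-11), 1.65 for Cal27 minus HN4 (adjusted p = 2.11e-08) and -1.14 for HN6 minus HN4 (adjusted p = 3.36e-06). NOTCH2 was highest in HN6, with 187, 193 and 187 CPM there, against 123, 135 and 132 CPM in Cal27 and 70.7, 72.3 and 67.7 CPM in HN4. NOTCH2 was thus lower in Cal27 than in HN6 by the test (log2 difference -0.51, adjusted p = 0.00119) and higher in HN6 than in HN4 (log2 difference 1.42, adjusted p = 1.36e-08). NOTCH1 spanned a narrower range, with 87.6, 82.6 and 77.1 CPM in Cal27, 55.4, 46.8 and 47.2 CPM in HN6 and 56.0, 61.3 and 60.5 CPM in HN4. NOTCH1 in HN6 was lower than in HN4 by 0.26 on the log2 scale (log2 difference -0.26, adjusted p = 0.00931), a call that was lost under 2 of 26 alternatives, with adjusted p up to 0.069. NOTCH2 shares near-identical sequence with the NOTCH2NL copies, and NOTCH2NLA itself averaged between 0.743 and 2.69 CPM over the groups.

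The ligand DLL1 had the widest range of all. It had 68.6, 61.4 and 62.9 CPM in untreated Cal27, 2.94, 1.77 and 2.66 CPM in untreated HN6 and 0.204, 0.563 and 0.582 CPM in untreated HN4, the last from 4 to 10 counts per library. The log2 difference was 4.74 for Cal27 minus HN6 (26.6-fold, adjusted p = 4.47e-13) and 7.18 for Cal27 minus HN4 (adjusted p = 3.5e-14). DLL1 passed the filter through Cal27 and HN6 and not HN4, so the size of the second difference rests on few HN4 counts. DLL1 overlaps FAM120B, a gene on the opposite strand that averaged 42.0 CPM in the untreated HN4 libraries where DLL1 averaged 0.450 CPM; whether counting used strand is not given in the sources used here. JAG1, the most abundant ligand per kb in each untreated line, had 259, 259 and 249 CPM in Cal27, 74.3, 79.0 and 79.9 CPM in HN6 and 115, 112 and 118 CPM in HN4. JAG1 was higher in Cal27 than in HN6 by 1.75 and than in HN4 by 1.17 on the log2 scale (adjusted p = 5.03e-07 and 4.98e-05), and lower in HN6 than in HN4 (log2 difference -0.57, adjusted p = 0.0164, lost under 1 of 26 alternatives at 0.0529). JAG2 averaged 57.0 ± 5.69 CPM in Cal27, 38.0 ± 0.402 CPM in HN6 and 50.2 ± 3.07 CPM in HN4 (SD, n = 3 each). JAG2 did not differ between Cal27 and HN4 by the test (log2 difference 0.20, adjusted p = 0.18), and both were above HN6.

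The target genes did not follow 1 order across the lines. HES1, a basic helix-loop-helix repressor and the textbook Notch target, varied least of the 4 targets, with 35.1, 28.4 and 28.8 CPM in Cal27, 36.7 ± 1.09 CPM (SD, n = 3) in HN6 and 23.7, 26.1 and 21.8 CPM in HN4. HES1 in Cal27 was called lower than in HN6 (log2 difference -0.22, adjusted p = 0.0388), but the call was lost under 8 of 26 alternatives, with adjusted p up to 0.315. HES2, a related repressor, had 39.7, 35.1 and 35.8 CPM in HN6, against 14.1, 12.7 and 12.3 CPM in Cal27 and 5.00, 3.94 and 3.61 CPM in HN4. HES2 was 8.70-fold higher in HN6 than in HN4 (log2 difference 3.12, adjusted p = 2.65e-12) and lower in Cal27 than in HN6 by the test (log2 difference -1.47, adjusted p = 1.57e-08). NRARP, which promotes loss of the Notch intracellular domain, had 14.8, 11.2 and 11.6 CPM in Cal27, 7.13, 6.05 and 6.61 CPM in HN6 and 1.84, 1.91 and 1.92 CPM in HN4. The 3 lines did not overlap, and the log2 difference was 0.96 for Cal27 minus HN6 and 2.75 for Cal27 minus HN4 (adjusted p = 0.000258 and 5.3e-09). HEY1, a repressor related to the HES family, averaged 3.70 ± 0.436 CPM in Cal27, 0.960 ± 0.0889 CPM in HN6 and 0.945 ± 0.248 CPM in HN4 (SD, n = 3 each). HEY1 was higher in Cal27 than in both other lines (log2 differences 1.97 and 1.99), while HN6 and HN4 were not separated (log2 difference 0.021, adjusted p = 0.955).

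**Figure D2:**
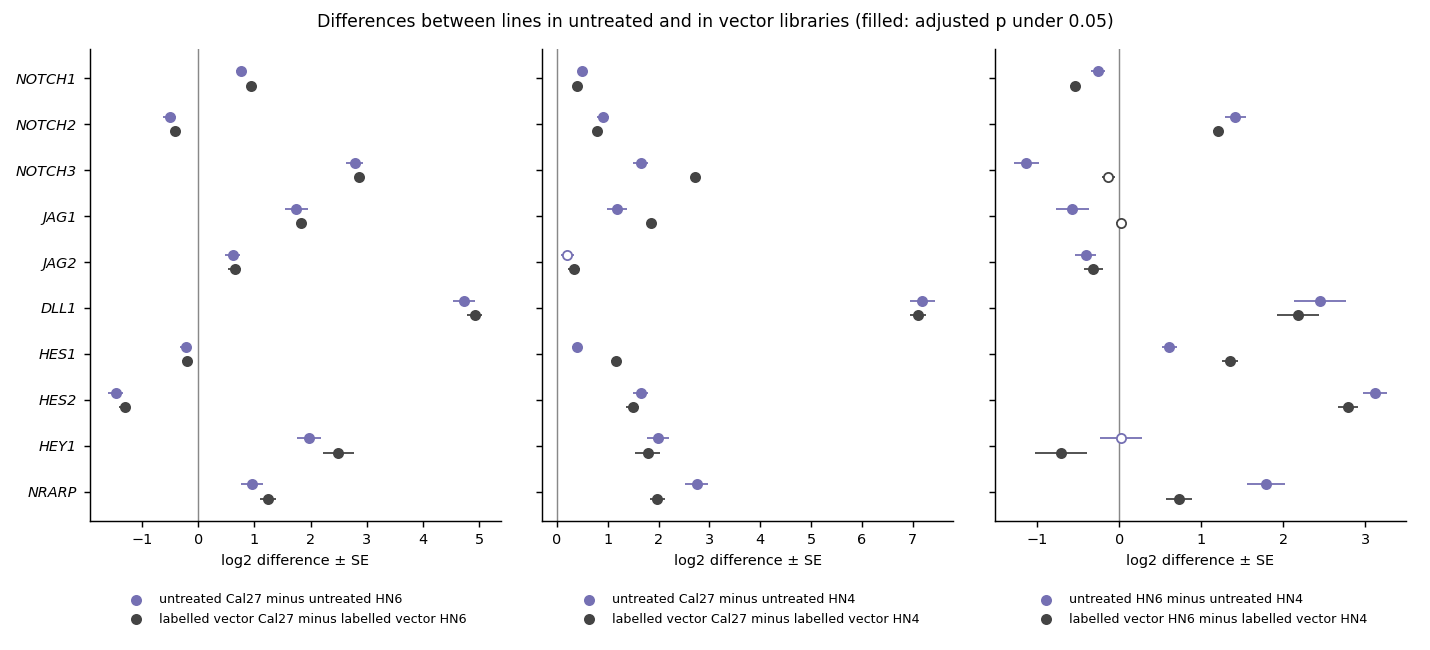
Log2 differences of the 10 genes between lines, with bars of 1 SE, for Cal27 minus HN6, Cal27 minus HN4 and HN6 minus HN4, in the untreated libraries (purple) and the vector libraries (black). DLL1 lies at 7.18 and 7.11 for Cal27 minus HN4, and JAG1 and NOTCH3 for HN6 minus HN4 lie nearer to 0 in the vector libraries. The HN4 vector libraries hold high ACLY, whose part was not tested.

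The vector libraries of the second experiment gave a further set of line differences. Between Cal27 vector and HN6 vector, all 10 genes were called, 7 higher and 3 lower in Cal27, where 73.3% of all genes were called, 36.7% higher and 36.6% lower. The log2 differences for Cal27 minus HN6 were 2.86 for NOTCH3, 4.92 for DLL1, 1.84 for JAG1, -0.41 for NOTCH2 and -1.31 for HES2. HES1 was again the weakest, at -0.19 (adjusted p = 0.0488, lost under 11 of 26 alternatives, up to 0.489). Comparisons with the libraries labelled HN4 vector rest on libraries that go against their label. There, Cal27 was higher for all 10 genes (background 71.8%), and 8 of 10 genes were called between HN6 and HN4, 5 higher and 3 lower in HN6 (background 69.3%). JAG1 and NOTCH3 were not called between HN6 vector and the libraries labelled HN4 vector, with log2 differences of 0.017 and -0.14 (adjusted p = 0.809 and 0.127). HEY1 was called there at -0.71 (adjusted p = 0.0469), and lost under 18 of 25 alternatives with adjusted p up to 0.195.

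Per kb of the deposited gene length, the lines differed in which receptor led. The order rests on that length. In plain CPM, NOTCH2 was the highest receptor in untreated HN4, at 70.2 CPM, against 59.3 for NOTCH1 and 42.7 for NOTCH3. In untreated Cal27, NOTCH2 and NOTCH3 were close in plain CPM, at 130 and 132. NOTCH3 was the highest receptor in untreated Cal27 at 14.0 CPM per kb, against 7.95 for NOTCH1 and 7.74 for NOTCH2. NOTCH2 was the highest in untreated HN6 at 11.2 CPM per kb, with 4.80 for NOTCH1 and 2.08 for NOTCH3. In untreated HN4 the receptors lay within a narrow range, at 5.71 CPM per kb for NOTCH1, 4.54 for NOTCH3 and 4.18 for NOTCH2. NOTCH3 thus made up 47.2% ± 2.13 of the 3 receptors in Cal27, 11.5% ± 0.492 in HN6 and 31.4% ± 1.49 in HN4 (SD, n = 3 each). Among the ligands, JAG1 led in every untreated line, at 27.5 CPM per kb in Cal27, 8.36 in HN6 and 12.4 in HN4. DLL1 made up 35.4% ± 0.798 of the 3 ligands in Cal27, 5.05% ± 1.25 in HN6 and 0.679% ± 0.311 in HN4.

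IL-8 was followed in Cal27 by lower levels of 2 receptors and 2 ligands. NOTCH2, NOTCH3, JAG1 and DLL1 fell, none of the 10 genes rose, and the median log2 difference of the 10 genes was -0.33, against 0.0042 over all genes. Of all genes tested, 39.4% were called in this comparison, 22.7% higher and 16.7% lower. NOTCH3 had 73.9, 69.4 and 41.1 CPM with IL-8 and 143, 123 and 129 CPM untreated. The groups did not overlap, and NOTCH3 was lower with IL-8 by a fold of 0.462 (log2 difference -1.12, SE 0.146, adjusted p = 1.37e-05). NOTCH2 had 97.9, 101 and 60.0 CPM with IL-8 and 123, 135 and 132 CPM untreated (log2 difference -0.61, SE 0.122, adjusted p = 0.000902). JAG1 had 166, 172 and 69.4 CPM with IL-8 and 259, 259 and 249 CPM untreated (log2 difference -0.93, SE 0.197, adjusted p = 0.00131). DLL1 had 44.1, 40.9 and 27.6 CPM with IL-8 and 68.6, 61.4 and 62.9 CPM untreated (log2 difference -0.79, SE 0.151, adjusted p = 0.000587).

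In each of these 4 genes the third IL-8 library, which had the lowest mitochondrial share, was the lowest of the group, and all 3 IL-8 libraries lay below all 3 untreated ones. Without that library the 4 genes kept their calls, with log2 differences of -0.90 for NOTCH3, -0.41 for NOTCH2, -0.62 for JAG1 and -0.62 for DLL1. NOTCH1 and HES2 were called lower as well then, at -0.19 and -0.50 (adjusted p = 0.0239 and 0.000486), which made 6 genes. Over all genes, 7884 were called in Cal27 without that library, against 7247 with it. In a fit of the 6 Cal27 libraries alone, NOTCH2 and JAG1 lost their calls (adjusted p = 0.0771 and 0.0802). HES1 had 33.4, 32.1 and 32.9 CPM with IL-8 and 35.1, 28.4 and 28.8 CPM untreated, and was not called (log2 difference 0.079, adjusted p = 0.517). JAG2, HES2, HEY1 and NRARP were not called either, with log2 differences of 0.069, -0.31, -0.34 and -0.33. Without the third IL-8 library NRARP was at -0.082 and JAG2 at -0.16 on that scale, both still not called. The IL-8 libraries of Cal27 held genes that mark HN4, at 0.310 of their HN4 level. The 11 genes that mark Cal27 stood at 0.605 ± 0.0608 of theirs with IL-8 and 0.997 ± 0.0333 untreated (SD, n = 3 each). The untreated value follows from how these genes were chosen and scaled. Cal27 with vector, which took no part in that, stood at 0.995 ± 0.0242. ACLY itself averaged 1170 ± 110.3 CPM in Cal27 with IL-8 and 233 ± 4.98 CPM untreated. Fibroblast markers summed to between 15.2 and 22.8 CPM with IL-8 and 27.2 and 29.2 CPM untreated, and endothelial markers to between 16.2 and 19.3 CPM with IL-8 and 28.3 and 29.2 CPM untreated. The mitochondrial share of counts was 3.37%, 3.59% and 1.06% with IL-8 and 4.55%, 4.72% and 4.83% untreated. The part of all these in the Notch differences was not tested.

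In HN6, IL-8 was followed by higher NOTCH3, HES2 and HEY1, and none of the 10 genes fell. These 3 of 10 stood against a background of 15.4% called, 7.61% higher and 7.81% lower, and the median log2 difference of the 10 was -0.019, against 0.0022 over all genes. NOTCH3 had 29.6, 30.6 and 33.6 CPM with IL-8 and 21.1, 19.1 and 18.4 CPM untreated. The groups did not overlap, and NOTCH3 was 1.61-fold higher with IL-8 (log2 difference 0.69, SE 0.154, adjusted p = 0.00521). HES2 had 48.9, 48.0 and 50.3 CPM with IL-8 and 39.7, 35.1 and 35.8 CPM untreated (log2 difference 0.42, SE 0.124, adjusted p = 0.0273). HEY1 had 1.62, 1.29 and 2.03 CPM with IL-8 and 0.905, 0.913 and 1.06 CPM untreated, from 16 to 35 counts per library (log2 difference 0.78, SE 0.239, adjusted p = 0.0342). Both of these calls were less firm than that of NOTCH3, which was kept under all 26 alternatives. HES2 was lost under 5 of 26, with adjusted p up to 0.107, and HEY1 under 6 of 25, up to 0.153. HES1 averaged 36.4 ± 0.998 CPM with IL-8 and 36.7 ± 1.09 CPM untreated (SD, n = 3 each) and was not called (log2 difference -0.0031, adjusted p = 1). NOTCH2 had 168, 167 and 166 CPM with IL-8 and 187, 193 and 187 CPM untreated, and was called only without the third Cal27 IL-8 library (log2 difference -0.17, adjusted p = 0.388 with it and 0.00283 without it). Fibroblast markers summed to between 29.1 and 31.1 CPM in HN6 with IL-8 and 17 and 18.1 CPM untreated, and their part in these differences was not tested.

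In HN4, IL-8 was followed by lower NOTCH3 and HES1 and higher NRARP. These 3 of 10 stood against a background of 14% called, 7.09% lower and 6.89% higher, and the median log2 difference was -0.13, against -0.0079 over all genes. NOTCH3 had 26.9, 24.6 and 25.2 CPM with IL-8 and 38.7, 43.7 and 45.5 CPM untreated. The groups did not overlap, and NOTCH3 was lower with IL-8 by a fold of 0.600 (log2 difference -0.74, SE 0.151, adjusted p = 0.00343). HES1 had 16.4, 16.8 and 15.2 CPM with IL-8 and 23.7, 26.1 and 21.8 CPM untreated (log2 difference -0.56, SE 0.0962, adjusted p = 0.000935). NRARP had 2.88, 3.80 and 3.08 CPM with IL-8 and 1.84, 1.91 and 1.92 CPM untreated, from 33 to 68 counts per library. Those libraries did not overlap either (log2 difference 0.79, SE 0.253, adjusted p = 0.0461), but the call was lost under 16 of 26 alternatives, with adjusted p up to 0.184. JAG1 had 84.0, 87.4 and 81.4 CPM with IL-8 and 115, 112 and 118 CPM untreated, with no overlap and no call (log2 difference -0.45, SE 0.198, adjusted p = 0.154). The spread in that test is shared over the 18 libraries of the experiment, the third Cal27 IL-8 library among them. Without that library JAG1 was called at the same log2 difference of -0.45 (adjusted p = 5.71e-09), as were NOTCH1 at 0.20, NOTCH2 at 0.22 and JAG2 at -0.18, which made 7 of 10 genes. The same change took the count over all genes to 5738, against 2572 with the library. ACLY itself averaged 1351 ± 18.1 CPM in HN4 with IL-8 and 374 ± 5.18 CPM in untreated HN4 (SD, n = 3 each).

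**Figure D3:**
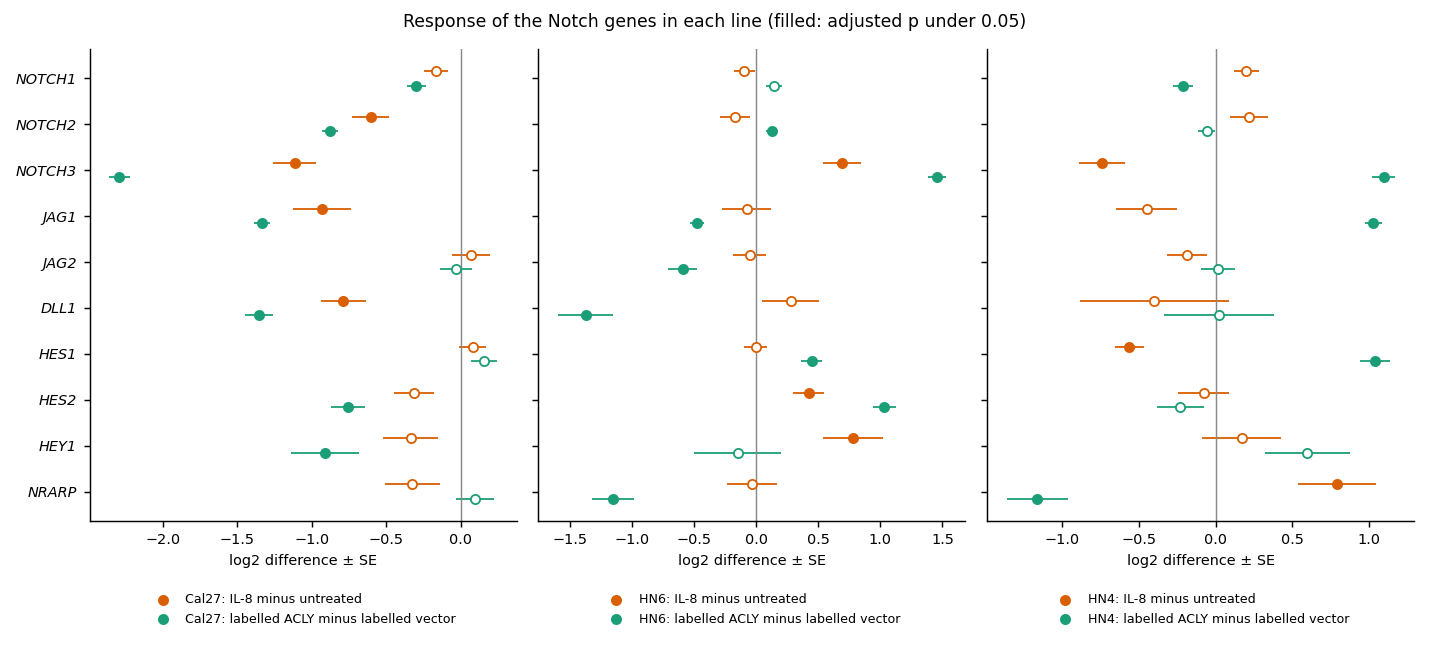
Log2 differences of the 10 genes for IL-8 minus untreated (orange) and for labelled ACLY minus labelled vector (green) in Cal27, HN6 and HN4, with bars of 1 SE and filled points for an adjusted p under 0.05. NOTCH3 lies at -1.12, 0.69 and -0.74 for IL-8 and at -2.29, 1.46 and 1.09 for the plasmid.

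The ACLY plasmid was followed in Cal27 by lower levels of 7 of the 10 genes. All 3 receptors, JAG1, DLL1, HES2 and HEY1 fell and none rose, where 63.2% of all genes were called, 34.2% higher and 29% lower. The median log2 difference of the 10 genes was -0.82, against 0.027 over all genes. NOTCH3 had 31.1, 32.5 and 30.9 CPM with the ACLY plasmid and 158, 148 and 153 CPM with vector. The groups were far apart, and NOTCH3 was lower with the plasmid by a fold of 0.204 (log2 difference -2.29, SE 0.0694, adjusted p = 1.21e-24). NOTCH2 had 77.4, 75.7 and 77.4 CPM with the plasmid and 141, 141 and 138 CPM with vector (log2 difference -0.88, SE 0.0536, adjusted p = 4.49e-16). NOTCH1 had 72.6, 78.3 and 75.3 CPM with the plasmid and 93.4, 89.8 and 92.5 CPM with vector (log2 difference -0.30, SE 0.0628, adjusted p = 0.000104). Thus the 3 receptors fell by unequal amounts, NOTCH1 least.

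The ligands of Cal27 were split. JAG1 had 107, 107 and 109 CPM with the plasmid and 267, 278 and 265 CPM with vector (log2 difference -1.34, SE 0.0538, adjusted p = 3.76e-21). DLL1 had 28.0, 29.4 and 28.5 CPM with the plasmid and 71.7, 70.5 and 75.9 CPM with vector (log2 difference -1.36, SE 0.0940, adjusted p = 1.25e-14). JAG2 had 57.4, 58.1 and 63.2 CPM with the plasmid and 60.2, 58.0 and 62.5 CPM with vector, and these libraries overlapped (log2 difference -0.029, adjusted p = 0.835). HES2 averaged 8.10 ± 1.27 CPM with the plasmid and 13.5 ± 1.22 CPM with vector, and HEY1 averaged 2.01 ± 0.0433 CPM with the plasmid and 3.75 ± 0.428 CPM with vector (SD, n = 3 each). HES2 and HEY1 were lower by 0.76 and 0.91 on the log2 scale (log2 differences -0.76 and -0.91, adjusted p = 6.89e-07 and 0.000793). HES1 and NRARP were not called, with log2 differences of 0.16 and 0.097 (adjusted p = 0.119 and 0.52). Genes that mark HN4 stood at 0.541 of their HN4 level in these Cal27 ACLY libraries, and the 11 genes that mark Cal27 at 0.246 ± 0.0140 with the plasmid and 0.995 ± 0.0242 with vector (SD, n = 3 each). Fibroblast markers summed to between 8.16 and 10.2 CPM with the plasmid and 30.2 and 32.3 CPM with vector, and endothelial markers to between 12.4 and 13.5 CPM with the plasmid and 27.4 and 29.4 CPM with vector. Squamous epithelial markers summed to between 4900 and 5110 CPM with the plasmid and 7860 and 8630 CPM with vector, with 9 of 10 called lower and 1 higher. The mitochondrial share was 3.16%, 3.27% and 3.21% with the plasmid and 4.53%, 5.01% and 4.57% with vector. The part of these values in the Notch differences was not tested.

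The levels in treated Cal27 could be set beside those of the untreated lines. Each of the 4 genes that fell with IL-8 and each of the 7 that fell with the plasmid moved towards the level of untreated HN4, while 3 of 4 and 5 of 7 moved towards that of untreated HN6, with each direction read from the control Cal27 libraries of whichever experiment was not being tested. Of all genes called in Cal27, 88.7% with IL-8 and 86.6% with the plasmid moved towards HN4, and 74.2% and 73.9% towards HN6. No test was made of the counts against these shares. The counts of members add nothing to the falls themselves. Every member was higher in both Cal27 control groups than in untreated HN4, so any that fell had to move towards HN4. Likewise, the HN6 counts follow from whether Cal27 or HN6 held more of each gene. With IL-8, NOTCH3 covered 0.789, NOTCH2 0.73, JAG1 0.853 and DLL1 0.419 of the distance in CPM between the Cal27 control and untreated HN4. With the plasmid, NOTCH3 covered 1.1, JAG1 1.05, NOTCH2 0.905, HEY1 0.62, DLL1 0.61, HES2 0.582 and NOTCH1 0.506 of it. Among the genes not called with IL-8, the value was 0.365 for NOTCH1, 0.276 for HES2, 0.269 for HEY1 and 0.23 for NRARP, and it was -0.473 for JAG2 and -0.292 for HES1, where a negative value points away from HN4. Among those not called with the plasmid it was 0.065 for JAG2, -0.0918 for NRARP and -0.435 for HES1. The median of the HN4-marking genes was 0.310 with IL-8 and 0.541 with the plasmid.

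In HN6 the ACLY plasmid was followed by changes in both directions. NOTCH2, NOTCH3, HES1 and HES2 rose, while JAG1, JAG2, DLL1 and NRARP fell, so that all 3 ligands were lower. These 8 of 10 stood against a background of 51.6% called, 26.8% higher and 24.9% lower, with a median log2 difference of -0.011, against 0.036 over all genes. NOTCH3 had 56.1, 58.2 and 60.2 CPM with the plasmid and 21.4, 19.0 and 23.4 CPM with vector. The groups did not overlap, and NOTCH3 was 2.74-fold higher (log2 difference 1.46, SE 0.0739, adjusted p = 6.01e-18). NOTCH2 had 209, 206 and 196 CPM with the plasmid and 199, 181 and 179 CPM with vector (log2 difference 0.13, SE 0.0515, adjusted p = 0.0381). Its libraries overlapped, and the call was lost under 12 of 26 alternatives, with adjusted p up to 0.305.

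The ligands of HN6 were each lower with the plasmid. JAG1 had 54.8, 55.9 and 53.3 CPM with the plasmid and 80.8, 72.3 and 75.0 CPM with vector (log2 difference -0.47, SE 0.0572, adjusted p = 1.1e-08). JAG2 had 25.0, 26.5 and 25.3 CPM with the plasmid and 35.5, 40.4 and 40.0 CPM with vector (log2 difference -0.59, SE 0.118, adjusted p = 0.000249). DLL1 had 0.920, 1.05 and 0.814 CPM with the plasmid and 2.35, 2.31 and 2.57 CPM with vector (log2 difference -1.37, SE 0.224, adjusted p = 3.13e-06). None of the 3 ligands overlapped between the groups, with no share over all genes to set beside this. DLL1 rested on between 16 and 19 counts per library with the plasmid and between 41 and 45 with vector.

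The target genes of HN6 went apart from each other. HES2 had 69.5, 69.5 and 67.4 CPM with the plasmid and 31.2, 35.0 and 34.9 CPM with vector, a 2.04-fold higher level (log2 difference 1.03, SE 0.0917, adjusted p = 1.09e-11). HES1 had 48.3, 55.6 and 52.9 CPM with the plasmid and 37.8, 37.2 and 40.4 CPM with vector (log2 difference 0.45, SE 0.0860, adjusted p = 4.25e-05). NRARP had 2.30, 3.03 and 2.54 CPM with the plasmid and 5.97, 5.40 and 6.21 CPM with vector, a fold of 0.450 (log2 difference -1.15, SE 0.168, adjusted p = 4.45e-07). Neither HES gene nor NRARP overlapped between the groups, again with no share over all genes beside it. HEY1 averaged 0.594 ± 0.109 CPM with the plasmid and 0.664 ± 0.0915 CPM with vector (SD, n = 3 each) and was not called (log2 difference -0.15, adjusted p = 0.762). Fibroblast markers summed to between 52.6 and 60.6 CPM with the plasmid and 18.5 and 22.3 CPM with vector, with DCN at or near 0 and COL1A1 at 44.9 CPM with the plasmid and 14.8 CPM with vector, and their part in these differences was not tested. Endothelial markers summed to between 21.5 and 23.8 CPM with the plasmid and 10.9 and 13.2 CPM with vector, with KDR at or near 0, and were not tested for a part either.

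Between the libraries labelled HN4 ACLY and those labelled HN4 vector, 5 of 10 genes were called. NOTCH3, JAG1 and HES1 were higher in the libraries labelled ACLY, and NOTCH1 and NRARP were lower, against a background of 38.1% (18.9% higher and 19.1% lower) and medians of 0.019 for the 10 genes and 0.013 for all genes. Since ACLY was lower in the libraries labelled ACLY, these directions hold for the labels and not for the level of ACLY. NOTCH3 had 46.5, 47.9 and 53.8 CPM in the libraries labelled HN4 ACLY and 22.7, 22.5 and 24.4 CPM in those labelled HN4 vector (2.13-fold, log2 difference 1.09, SE 0.0738, adjusted p = 6.73e-14). JAG1 had 145, 148 and 163 CPM in those labelled ACLY and 71.9, 75.7 and 77.1 CPM in those labelled vector (2.03-fold, log2 difference 1.02, SE 0.0551, adjusted p = 1.53e-16). HES1 had 26.6, 31.8 and 33.6 CPM in those labelled ACLY and 16.7, 14.1 and 14.3 CPM in those labelled vector (2.05-fold, log2 difference 1.04, SE 0.0972, adjusted p = 1.69e-10). The groups did not overlap in any of these 3 genes, each of which lay at about a 2-fold difference. How many of all genes did not overlap there was not computed.

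NRARP had 1.20, 1.43 and 2.05 CPM in the libraries labelled HN4 ACLY and 3.28, 3.23 and 4.01 CPM in those labelled HN4 vector (fold 0.448, log2 difference -1.16, SE 0.198, adjusted p = 1.53e-05). NOTCH1 had 59.2, 61.9 and 58.8 CPM in those labelled ACLY and 64.5, 72.0 and 72.8 CPM in those labelled vector (log2 difference -0.21, SE 0.0647, adjusted p = 0.00885, lost under 2 of 26 alternatives, up to 0.0757). NRARP and NOTCH1 were thus the only members lower in the libraries labelled ACLY by this test, and neither overlapped. JAG2 had 39.3, 43.1 and 62.5 CPM in those labelled ACLY and 48.1, 48.7 and 47.3 CPM in those labelled vector, so that the third ACLY-labelled library, the one of low mitochondrial share, stood above all others. Without it JAG2 was lower in the libraries labelled ACLY (log2 difference -0.22, adjusted p = 0.0143), where with it the difference was 0.017 (adjusted p = 0.935). NOTCH2, DLL1, HES2 and HEY1 were not called, with log2 differences of -0.057, 0.022, -0.23 and 0.60.

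The responses of the 3 lines were compared by an interaction test, which asks whether the treatment difference is the same in all 3. Treated Cal27 entered it with genes that mark HN4 at 0.310 of their HN4 level with IL-8 and 0.541 with the plasmid. The part of this in the calls was not tested. For IL-8, 8 of 10 genes differed among the lines, where 40.2% of all genes did; JAG1 and JAG2 were not called (adjusted p = 0.0554 and 0.492). NOTCH3 gave the lowest adjusted p of the 10 (9.48e-06), with the fall in Cal27 and HN4 and the rise in HN6. For the plasmid, all 10 genes differed among the lines with HN4 as labelled, where 70.9% of all genes did. ACLY was lower in the libraries labelled HN4 ACLY, so this test compares labelled groups and not responses to ACLY. NOTCH3 was again the lowest (adjusted p = 1.56e-26), followed by JAG1 (4.63e-23), which was lower in Cal27 and HN6 and higher in the libraries labelled HN4 ACLY. Both experiments used separate libraries. The IL-8 and plasmid directions of NOTCH3 were the same in Cal27 and in HN6 and opposite in HN4 as labelled. A link between NOTCH3 and the level of ACLY was not tested.

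Shares per length showed how the receptor mixture shifted. In Cal27 with IL-8, NOTCH3 made up 34.2% ± 4.84 of the 3 receptors, against 47.2% ± 2.13 untreated, and with the ACLY plasmid 22.1% ± 0.334, against 48.7% ± 0.542 with vector (SD, n = 3 each). In HN6 NOTCH2 led in all 4 groups, with 56.0% ± 0.523 under IL-8, 62.1% ± 2.32 untreated, 51.7% ± 1.85 with the plasmid and 61.7% ± 2.41 with vector. In HN6 the NOTCH3 share was 18.8% ± 1.24 with IL-8 and 11.5% ± 0.492 untreated, and 26.5% ± 1.03 with the plasmid and 12.6% ± 1.10 with vector. In HN4 it was 19.3% ± 1.02 with IL-8 and 31.4% ± 1.49 untreated, and 33.6% ± 2.28 in the libraries labelled ACLY and 17.7% ± 0.405 in those labelled vector. The shares of the 2 groups in each of these 6 pairs did not overlap for NOTCH3. Of the ligands, JAG2 made up 31.3% ± 1.04 in Cal27 with the plasmid and 15.4% ± 0.482 with vector, while in HN6 its mean lay between 39.3% and 40.4% in all 4 groups. The JAG2 share in Cal27 with IL-8 was 28.0% ± 12.9, the spread coming from the third library at 42.9%. These shares are descriptions with no test.

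**Figure D4:**
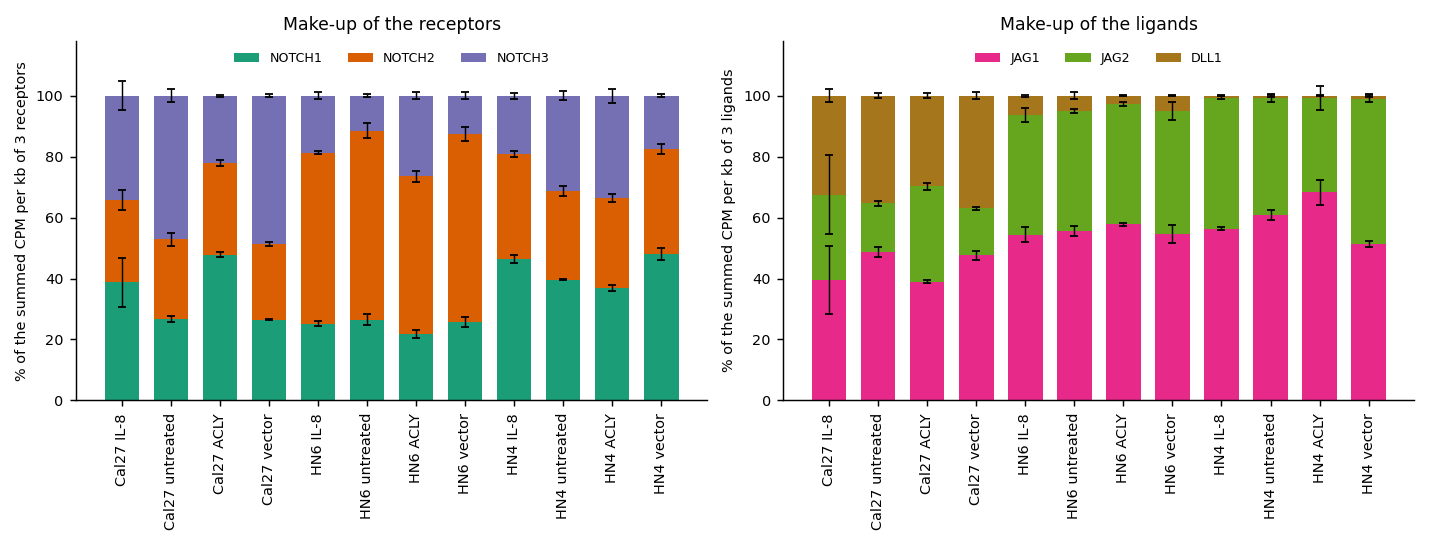
Stacked shares of the 3 receptors and of the 3 ligands in CPM per kb, in percent of their sum, for each of the 12 groups, with the mean of 3 libraries and error bars of 1 SD. NOTCH3 takes 47.2% of the receptors in untreated Cal27 and 22.1% in Cal27 with the ACLY plasmid, and NOTCH2 takes more than any other receptor in each HN6 group.

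The machinery around the receptors was described from 7 further lists of 76 genes, of which the 68 that passed the filter in the IL-8 experiment were tested there. Of 9 enzymes and subunits that cleave the receptor, 6 rose and none fell with the plasmid in HN6, where 26.8% of all genes were called higher and 24.9% lower. They included ADAM17 (137 CPM with the plasmid and 92.1 CPM with vector, log2 difference 0.57, adjusted p = 2.23e-10) and APH1B, a gamma-secretase subunit (10.2 CPM with the plasmid and 6.03 CPM with vector, log2 difference 0.77). In Cal27 2 of 9 rose and 4 fell with the plasmid, where 34.2% of all genes were called higher and 29% lower. FURIN, which cuts the receptor precursor, had 260 CPM with the plasmid and 122 CPM with vector (log2 difference 1.08, adjusted p = 5.1e-18), whereas ADAM17 had 63.4 CPM with the plasmid and 93.2 CPM with vector (log2 difference -0.57). With IL-8, ADAM17 was the only cleavage gene called in HN6 (118 CPM with IL-8 and 93.1 CPM untreated, log2 difference 0.35, adjusted p = 0.00298), where 15.4% of all genes were called, and 2 of 9 were called in each direction in Cal27, where 22.7% of all genes were higher and 16.7% lower. In HN4, 2 of 9 were called lower with IL-8 (7.09% of all genes), and 5 higher and 1 lower in the libraries labelled ACLY (18.9% and 19.1% of all genes).

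Glycosyltransferases tune which ligand a receptor hears. POFUT1, which adds the O-fucose that receptors need, fell in HN6 with IL-8 (198 CPM with IL-8 and 243 CPM untreated, log2 difference -0.29, adjusted p = 0.00337) and with the plasmid (137 CPM with the plasmid and 232 CPM with vector, log2 difference -0.75, adjusted p = 1.38e-14). LFNG, the lunatic fringe enzyme, was lower in HN4 with IL-8 (10.6 CPM with IL-8 and 17.3 CPM untreated, log2 difference -0.70, adjusted p = 0.00217) and in Cal27 with the plasmid (19.95 CPM with the plasmid and 31.4 CPM with vector, log2 difference -0.67, adjusted p = 1.7e-05). Of 8 such genes, 2 rose and 1 fell in Cal27 with IL-8, 1 rose and 2 fell in HN6, and 1 rose and 1 fell in HN4, where 39.4%, 15.4% and 14% of all genes were called. With the plasmid 5 rose and 1 fell in Cal27, where 34.2% of all genes were higher and 29% lower, and 2 rose and 5 fell in HN6, where 26.8% were higher and 24.9% lower.

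Of 18 genes of the nuclear complex and its corepressors, 3 rose and 5 fell in Cal27 with IL-8, and 6 rose and 6 fell with the plasmid, where 39.4% and 63.2% of all genes were called. EP300, an acetyltransferase recruited by Mastermind-like proteins, had 56.7 CPM with IL-8 and 106 CPM untreated in Cal27 (log2 difference -0.92, adjusted p = 2.15e-05), and 40.7 CPM with the plasmid and 116 CPM with vector (log2 difference -1.52, adjusted p = 1.29e-19). TLE4, a Groucho-type corepressor, was lower in both comparisons (log2 differences -0.90 and -1.59). TLE2, another of that type, was higher in both, with 2.35 CPM with IL-8 and 0.256 CPM untreated (log2 difference 3.14), and 3.45 CPM with the plasmid and 0.496 CPM with vector (log2 difference 2.76). EP300 was low in untreated HN4, at 23.0 CPM, and TLE2 was higher there, at 6.29 CPM. In HN4 with IL-8, 1 of 18 rose and 1 fell (14% of all genes were called), and TLE2 had 2.76 CPM with IL-8 and 6.29 CPM untreated (log2 difference -1.19, adjusted p = 0.00211). In HN6, 2 rose and 2 fell with IL-8 and 5 rose and 6 fell with the plasmid, where 15.4% and 51.6% of all genes were called. Those that fell with the plasmid included KAT2A, an acetyltransferase (39.3 CPM with the plasmid and 72.6 CPM with vector, log2 difference -0.88). The count of nuclear genes lower in HN6 with IL-8 was 7 without the third Cal27 IL-8 library, against 2 with it. Over all genes, 6194 were called in HN6 without that library, against 2837 with it.

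Among 15 genes of receptor and ligand trafficking and turnover, 6 rose and 4 fell in Cal27 with the plasmid, where 34.2% of all genes were higher and 29% lower. NEURL1B, a ubiquitin ligase of the Neuralized family that acts on Notch ligands, had 3.51 CPM with the plasmid and 20.6 CPM with vector (log2 difference -2.56, adjusted p = 3.65e-15), and 8.63 CPM with IL-8 and 18.6 CPM untreated (log2 difference -1.12, adjusted p = 9.11e-07). DTX4, of the Deltex family of Notch regulators, was higher in Cal27 with the plasmid (32.7 CPM with it and 14.7 CPM with vector, log2 difference 1.14). DTX4 was also higher in HN6 with the plasmid (102 CPM with it and 68.2 CPM with vector, log2 difference 0.58), where 6 of 15 rose and 2 fell, against 26.8% higher and 24.9% lower over all genes. With IL-8, 3 of 15 rose and 2 fell in Cal27, 2 rose and 2 fell in HN6, and 1 fell in HN4, where 39.4%, 15.4% and 14% of all genes were called.

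In the wider HES and HEY family, 6 genes were tested. With IL-8, 2 rose and 2 fell in Cal27, 1 rose in HN6 and 2 fell in HN4, where 39.4%, 15.4% and 14% of all genes were called. With the plasmid, 3 rose and 2 fell in Cal27 and 2 rose in HN6, where 63.2% and 51.6% were called. In the libraries labelled HN4 ACLY, 2 were higher and 1 lower (38.1%). HEYL was lower in Cal27 with both treatments, with the plasmid near the floor of 0.148 to 0.181 CPM. It had 0.248 CPM with the plasmid and 2.31 CPM with vector (log2 difference -3.19, adjusted p = 2.64e-06), and 1.43 CPM with IL-8 and 2.44 CPM untreated (log2 difference -0.79, adjusted p = 0.0272). HES7 went the other way, with 3.43 CPM with IL-8 and 1.06 CPM untreated (log2 difference 1.68, adjusted p = 0.00071) and 4.36 CPM with the plasmid and 1.13 CPM with vector (log2 difference 1.93). BHLHE40, a repressor of the same protein class that also responds to hypoxia, had 180 CPM with the plasmid and 47.0 CPM with vector in HN6 (log2 difference 1.94, adjusted p = 2.61e-23). It had 125 CPM in the libraries labelled HN4 ACLY and 57.1 CPM in those labelled HN4 vector (log2 difference 1.13, adjusted p = 1.94e-16).

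Further genes reported as Notch targets did not move in 1 direction. CDKN1A, the cell-cycle inhibitor p21, was higher in Cal27 with IL-8 (169 CPM with it and 68.2 CPM untreated, log2 difference 1.30) and with the plasmid (276 CPM with it and 69.1 CPM with vector, log2 difference 1.99). It was also higher in HN6 with the plasmid (302 CPM with it and 149 CPM with vector, log2 difference 1.02) and lower in HN4 with IL-8 (291 CPM with it and 410 CPM untreated, log2 difference -0.50, adjusted p = 0.000156). CCND1, cyclin D1, had 917 CPM with the plasmid and 2527 CPM with vector in HN6 (log2 difference -1.46, adjusted p = 2.02e-23). In HN4 CCND1 had 357 CPM with IL-8 and 273 CPM untreated (log2 difference 0.39, adjusted p = 0.00282). With IL-8, 3 of the 9 tested genes of this list rose and 1 fell in Cal27, 2 rose and 3 fell in HN6 and 1 went each way in HN4, where 39.4%, 15.4% and 14% of all genes were called. With the plasmid, 4 were called in each direction in Cal27 and 3 in each direction in HN6, where 63.2% and 51.6% of all genes were called.

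The genes whose 12 group means followed each member most closely were named by Pearson's r over log2 CPM. The search covered 11497 other protein-coding genes with a mean log2 CPM of at least 1, whatever the level of the member. These are descriptions, since the group means share lines and libraries. DLL1 was most alike to EFNB1 (r = 0.9966) and OSGEP (0.9899), NOTCH2 to SRGAP2B (0.9895) and CTNND1 (0.9893), and HES2 to KDM1A (0.9892) and CRABP2 (0.9888). JAG2 was most alike to PARD6G (0.9842) and LPAR3 (0.9765), NRARP to PTHLH (0.9777) and EIF4A3 (0.977), NOTCH1 to IFI16 (0.9715) and PPP2R5A (0.9693), and JAG1 to TMEM136 (0.9713) and ZNF283 (0.9573). NOTCH3 was most alike to CARD14 (0.9709) and LMLN (0.9707), and HES1 to TBC1D10A (0.9359) and TMEM50A (0.9292). HEY1 was too low for this description.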

How the data were processed

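Poly(A) RNA of 36 libraries was sequenced. The authors deposited counts per gene; CASAVA, HISAT2 2.0.5, featureCounts 1.5.0-p3, DESeq2 and build hg38 are named in the submitters' processing notes, while the annotation release and strand setting are not given in the sources used here. The deposited counts were tested with edgeR 4.0.16 (R 4.3.3, limma 3.58.1) by quasi-likelihood, TMM scaling and Benjamini-Hochberg adjustment, in 1 fit of 18 libraries per experiment (12 residual degrees of freedom). The filter (minimum count 10, minimum total 15) left 18398 genes with IL-8 and 18556 with plasmids. The SE is the size of the log2 difference over the square root of F, and CPM per kb uses the deposited gene length. The script was tested on simulated counts. DESeq2 1.42.0, other scalings, filters, sets of libraries, a replicate block and leaving out each library were alternatives. The 10 members were named throughout, and from each other list up to 4 called genes of largest log2 difference. Members and lists were chosen with earlier results of these data known.

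The replicate numbers were not used to pair the libraries. In no comparison did all 3 same-numbered pairs of deviations correlate above 0.1, a bar that cannot exclude pairing. Untreated Cal27 against untreated HN6 gave r of 0.345, 0.342 and 0.013 for replicates 1, 2 and 3. The floor of 3 counts covers counting error only, while the SE also takes in spread among libraries through the quasi-likelihood F.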

Additional observations from a re-analysis of the deposited data

Results flagged for a closer look

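The difference between labelled groups varied among Cal27, HN6 and HN4 by edgeR's interaction test in 18 of 20 cases, which are listed with their adjusted p. With each library left out, between 6 and 9 genes were called for IL-8 and between 9 and 10 for the plasmid. For IL-8 the values were 0.035 for NOTCH1, 0.00386 for NOTCH2, 9.48e-06 for NOTCH3, 0.0149 for DLL1, 0.00194 for HES1, 0.0112 for HES2, 0.0206 for HEY1 and 0.0257 for NRARP. Over all genes 40.2% differed in that test. For the plasmid, with the HN4 libraries as labelled, the values were 0.000156 for NOTCH1, 7.61e-14 for NOTCH2, 1.56e-26 for NOTCH3, 4.63e-23 for JAG1, 0.00361 for JAG2, 0.00591 for DLL1, 1.64e-06 for HES1, 1.72e-12 for HES2, 0.00152 for HEY1 and 1.1e-06 for NRARP. Over all genes 70.9% differed there. Because the HN4 labels run against the level of ACLY, the plasmid values compare labelled groups and not responses to ACLY. Genes that mark HN4 stood at 0.310 of their HN4 level in Cal27 with IL-8 and 0.541 with the plasmid. Their part in both sets of values was not tested. NOTCH3 with IL-8 had log2 differences of -1.12 in Cal27, 0.69 in HN6 and -0.74 in HN4, and with the plasmid -2.29, 1.46 and, between the libraries as labelled, 1.09. No test for single outlying libraries was applied to these groups of 3. In the comparison of replicate libraries, chi-square per degree of freedom over genes was 104.4 and 106.9 for the pairs with Cal27 IL-8 replicate 3, against 2.125 for replicates 1 and 2, and 36.6 and 41.1 for the pairs with HN4 ACLY replicate 3, against 3.29 for replicates 1 and 2.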

How the results depend on the processing

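With 3 libraries a group, few counts for DLL1 and HEY1 outside Cal27, and 1 shared estimate of spread per experiment, small differences rest on the choice of libraries. The number of members called lay between 2 and 7 (3 in the main test) for IL-8 in HN4 and between 1 and 4 (3) in HN6 when each library was left out, with the top of both ranges without Cal27 IL-8 replicate 3 and 1 in HN6 without untreated replicate 2 or 3 or IL-8 replicate 1 or 3. With the 6 libraries of a comparison alone it was 7 in HN4 and 2, against 4, in Cal27. The replicate block changed no count of members except 7, against 8, for vector HN6 over HN4 and 9, against 10, for vector Cal27 over HN6; in the HN6 plasmid comparison 3 of 3 libraries correlated best with their own number, with r between 0.0182 and 0.0558, a hint from the data and not the design.

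Over all genes, the calls for IL-8 in HN4 were 2572 and lay between 1401 and 5738 with a library left out, and were 6551 with 6 libraries alone. In HN6 they were 2837, between 1742 and 6194, and 6025, and in Cal27 7247 and 2588 with 6 alone. The share of calls that were higher went to 33.3% and 32.3% with library-size and upper-quartile scaling, against 49.3%, for IL-8 in HN4, to 64.4% and 63.8%, against 49.3%, in HN6, and with upper-quartile scaling to 46.8%, against 57.6%, for IL-8 in Cal27, 61.6%, against 49.7%, for the plasmid in HN4 and 42.1%, against 54.1%, in Cal27.

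The median log2 difference over all genes moved by over 0.1 in 4 comparisons: to 0.148 and 0.145 (library-size and upper-quartile scaling), against 0.030, for untreated Cal27 over HN6, to 0.129 and 0.128, against 0.0075, for vector Cal27 over HN6, and with upper-quartile scaling to 0.173, against 0, for vector Cal27 over HN4 and to -0.112, against 0.027, for the plasmid in Cal27.

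For the other gene lists, an alternative chosen after seeing the data left out Cal27 IL-8 replicate 3. It raised the genes called lower with IL-8 in HN6 to 7 for the nuclear complex (against 2) and 5 for further targets (against 3). Those called higher in HN4 rose to 4 for the nuclear complex (against 1). Over all genes the calls rose as well, to 6194 (against 2837) in HN6 and 5738 (against 2572) in HN4. Leaving out HN4 ACLY replicate 3 raised the nuclear complex genes higher in the libraries labelled HN4 ACLY to 4 (against 1). Over all genes, 7190 were called there (against 7062).

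No called member changed sign under any alternative. Log2 differences near 0 did. With library-size scaling they were 0.045 for HES1 and 0.014 for NRARP with IL-8 in HN6, -0.068 for HEY1 between untreated HN6 and HN4 and -0.0063 for JAG1 between vector HN6 and HN4. With upper-quartile scaling they were 0.0035 for JAG2, 0.053 for HES1 and 0.021 for NRARP with IL-8 in HN6, -0.0020 for JAG2 with IL-8 in Cal27, -0.0045 for HEY1 between untreated HN6 and HN4, 0.010 for NOTCH2 with the plasmid in HN4 and -0.050 for NRARP in Cal27. With a mean of at least 5 CPM they were 0.034 for HES1 and 0.0021 for NRARP with IL-8 in HN6 and -0.034 for NRARP with the plasmid in Cal27. With no filter on low counts JAG2 was -0.0075 and DLL1 -0.0027 with the plasmid in HN4, and with 6 libraries alone HES1 was 0.0094 with IL-8 in HN6. With each library left out, the ranges were -0.17 to 0.079 for HES2 and -0.038 to 0.32 for HEY1 with IL-8 in HN4, -0.19 to 0.17 for HEY1 between untreated HN6 and HN4, -0.019 to 0.021 for HES1 and -0.096 to 0.067 for NRARP with IL-8 in HN6, -0.16 to 0.18 for JAG2 with IL-8 in Cal27, -0.48 to 0.46 for DLL1 and -0.22 to 0.15 for JAG2 with the plasmid in HN4, -0.067 to 0.0032 for JAG2 with it in Cal27, and -0.028 to 0.054 for JAG1 between vector HN6 and HN4. The cause of these changes was not tested.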

Other observations

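Several receptors and ligands outside the 10 were near the detection floor. DLL4, an endothelial ligand, averaged between 0.0184 and 0.310 CPM over the 12 groups, and NOTCH4, a receptor known from endothelium, between 0.327 CPM in untreated HN6 and 1.59 CPM in Cal27 with vector. DLL3 had 0 counts in untreated Cal27 and in Cal27 with vector, and averaged 0.109 CPM in Cal27 with IL-8 and 0.364 CPM in Cal27 with the ACLY plasmid; it averaged 0.846 CPM in untreated HN4 and 0.980 CPM in untreated HN6. DLK2, an atypical ligand, was higher in HN6 with IL-8, at 39.3 CPM with it and 27.4 CPM untreated (log2 difference 0.53, edgeR adjusted p = 0.00239).

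Among the 10 genes, the group means of log2 CPM of some pairs followed each other over the 12 groups, which share lines and libraries. Pearson's r was 0.942 for NOTCH2 and HES2, 0.919 for DLL1 and NRARP, 0.852 for JAG1 and HEY1, 0.822 for DLL1 and HEY1 and 0.804 for NOTCH3 and JAG1. These values are descriptions.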
